A study of Mus musculus with 9 samples.

Results

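The genes described here are 42 cyclins, cyclin-dependent kinases, mitotic kinases, checkpoint proteins and spindle genes, measured by RNA sequencing in mouse liver. They were taken by gene symbol from a count table of 34745 genes, and all 42 were found. They were divided by the phase in which each product is known to act into 9 G1 genes, 7 S phase genes and 26 mitotic genes. The division uses known roles and not measured values, though the genes were put together with earlier results of these data known.

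Cells leave rest when D-type cyclins bind Cdk4 or Cdk6 and inactivate the retinoblastoma proteins, which frees E2F factors to switch on cyclin E and the replication genes. Licensing factors then load the replicative helicase, and nucleotide enzymes and the Pcna clamp serve DNA synthesis. Mitosis is driven by Cdk1 with B-type cyclins, by Polo-like and Aurora kinases and by kinesins of the spindle, and the spindle checkpoint holds the Cdc20-bound anaphase-promoting complex until chromosomes are attached. Most cells of the adult liver are at rest, and hepatocytes can re-enter the cycle after injury, in some cases without dividing, which makes them polyploid.

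The 9 libraries came from livers of C57BL/6 mice in 3 groups of 3. In the first, mice drank thioacetamide (TAA), a hepatotoxin, at 400 mg/L for 16 weeks and were given sulodexide, a mixture of glycosaminoglycans, each day for the last 4 weeks. In the second, mice drank TAA in the same way and were given vehicle over the same 4 weeks. The third was the control group. TAA was continued during the sulodexide or vehicle weeks. The labels give neither the sulodexide dose nor sex or age, do not say whether the controls received vehicle, and do not tie the libraries to single mice. The p-values therefore rest on library-to-library spread, which may be technical. No group isolates sulodexide without TAA.

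The libraries held 13803697 to 16655951 counts in genes. Levels are given as CPM, counts scaled to a common library size, with library sizes scaled by the trimmed mean of M-values, and a test was possible for 13701 genes. Mitochondrially encoded genes held 6.24% to 7.85% of counts in sulodexide, 4.79% to 6.52% in vehicle and 9.89% to 10.9% in control livers, and the part of this difference in the results was not tested. The hepatocyte gene Alb averaged 80500 CPM in sulodexide livers, 75600 CPM in vehicle livers and 75700 CPM in control livers. The sum over 12 hepatocyte markers, Alb among them, averaged 110000 CPM in sulodexide, 100000 CPM in vehicle and 125000 CPM in control livers. The median log2 fold change of the 12 was -1.0 in vehicle against control. In bulk tissue, fewer cells of a type and less RNA per cell cannot be told apart. "Rose" and "fell" refer to an adjusted p below 0.05 in the quasi-likelihood test of edgeR, adjusted by Benjamini-Hochberg over all genes tested. Of the 42 genes 40 were tested, and Cdc25c and Ttk were too low. A total of 8 tested genes, 7 of them mitotic, passed the filter on low counts only with the help of the vehicle libraries. They were Cdc6 of S phase and the mitotic genes Aurkb, Bub1, Cenpe, Cenpf, Kif23, Nusap1 and Hmmr. Overlapping genes on the genome with more than 10% of their own counts lie at 9 of the 42 (Ccnd1, Ccnd3, Cdk4, Ccne2, Ccna2, Cdc20, Kif20a, Prc1 and Nusap1), and since the strand setting of the counting is not given in the sources used here, their counts are uncertain to that extent.

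In the comparison of TAA with vehicle against control, 27 of the 40 tested genes rose and 0 fell by edgeR, where 23.1% of all tested genes rose and 20.4% fell. At an unadjusted p below 0.05 by edgeR 28 were higher and 1, Ccne2, was lower, and DESeq2 called 27 higher and 0 lower of 42. The classes were unequal. Of the G1 genes 2 of 9 rose, of the S phase genes 3 of 7, and of the mitotic genes 22 of 24. Those that rose include genes that passed the filter on low counts only with the help of the vehicle libraries. They were Cdc6 of the S phase class and Aurkb, Bub1, Cenpf, Kif23, Nusap1 and Hmmr of the mitotic class. The median log2 fold change was 0.11 for G1 genes, 0.29 for S phase genes and 2.42 for mitotic genes, beside 0.01 for all tested genes.

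The share of G1 genes that rose, 2 of 9, was near the 23.1% of all tested genes. Cyclin D1 had the largest change of the class. Ccnd1 (ENSMUSG00000070348, chr7:144929931-144939869, GRCm38), the D-type cyclin that activates Cdk4 and Cdk6, had 181, 110 and 94.1 CPM in sulodexide livers, 168, 106 and 118 CPM in vehicle livers, and 31.2, 34.2 and 27.6 CPM in control livers. Every TAA library lay above every control library, and the sulodexide and vehicle libraries overlapped. Ccnd1 was 4.21-fold higher in vehicle than in control livers (log2 fold change 2.07 ± 0.26 SE, adjusted p = 0.000164 by edgeR). It was also 4.14-fold higher in sulodexide than in control livers (log2 fold change 2.05 ± 0.26 SE, adjusted p = 0.00048). Between sulodexide and vehicle livers its log2 fold change was -0.02 ± 0.24 SE, with a 95% confidence interval of -0.56 to 0.52 (adjusted p = 0.972). Cyclin D1 was the only one of the 9 G1 genes called in sulodexide against control livers, where 11.2% of all tested genes rose and 11.4% fell.

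The other D-type cyclins moved less. Ccnd2 had 9.64, 11.5 and 6.31 CPM in sulodexide livers, 15.5, 9.39 and 15.3 CPM in vehicle livers, and 7.77, 7.57 and 7.26 CPM in control livers. It rose in vehicle against control livers by a log2 fold change of 0.83 ± 0.25 SE (adjusted p = 0.018), a call lost without any 1 of the control libraries and without vehicle library 1 or 3. Its difference between sulodexide and vehicle livers did not pass the test (log2 fold change -0.55, adjusted p = 0.228), and vehicle library 2 lay among the sulodexide values. Ccnd3 had 6.75, 15.7 and 39.5 CPM in sulodexide livers, 25.1, 36.3 and 39.6 CPM in vehicle livers, and 37.6, 13.9 and 41.6 CPM in control livers. Its spread inside each group was as wide as any difference between groups (vehicle against control, log2 fold change 0.12 ± 0.63 SE, adjusted p = 0.899).

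The kinases that bind these cyclins stayed within narrow ranges. Cdk4 had 30.8, 32.1 and 40.6 CPM in sulodexide livers, 36.9, 31.8 and 39.7 CPM in vehicle livers, and 27.5, 33.1 and 27.1 CPM in control livers, with overlap between all groups. Cdk6 had 33.6, 27.7 and 25.3 CPM in sulodexide livers, 32.6, 26.8 and 28.9 CPM in vehicle livers, and 26.1, 26.8 and 29 CPM in control livers. Vehicle against control, the log2 fold change was 0.3 for Cdk4 (95% interval -0.02 to 0.63) and 0.11 for Cdk6 (95% interval -0.19 to 0.41), and neither passed the test.

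The genes of the passage from G1 to S phase did not pass edgeR's test in vehicle against control livers. Cdk2 passed with scaling by total counts (log2 fold change 0.38, below the median of all genes at 0.41) and with limma on FPKM (0.37, where the median of all genes was also 0.37). Ccne1, which encodes cyclin E1, the partner of Cdk2, had 2.25, 3.65 and 3.88 CPM in sulodexide livers, 2.52, 1.78 and 2.09 CPM in vehicle livers, and 3.05, 1.89 and 2.53 CPM in control livers. Ccne2, its paralogue, had 1.12, 1.8 and 0.986 CPM in sulodexide livers, 0.537, 1.53 and 1.04 CPM in vehicle livers, and 2.54, 1.55 and 2.28 CPM in control livers. All 3 vehicle libraries were below the controls for Ccne2, and the log2 fold change of -1.04 ± 0.42 SE missed the threshold (adjusted p = 0.0667), which it passed with voom of limma and without vehicle library 2. Cdk2 had 10, 11.6 and 10.1 CPM in sulodexide livers, 12.2, 12.9 and 13.9 CPM in vehicle livers, and 12.7, 13.9 and 12.7 CPM in control livers. The sulodexide libraries were below both other groups for Cdk2, by a log2 fold change of -0.3 ± 0.13 SE against vehicle (adjusted p = 0.245). E2f1, an activating E2F factor, had 3.43, 5.74 and 4.67 CPM in sulodexide livers, 3.81, 3.81 and 4.76 CPM in vehicle livers, and 5.88, 6.02 and 4.08 CPM in control livers, and the groups overlapped.

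**Figure D1:**
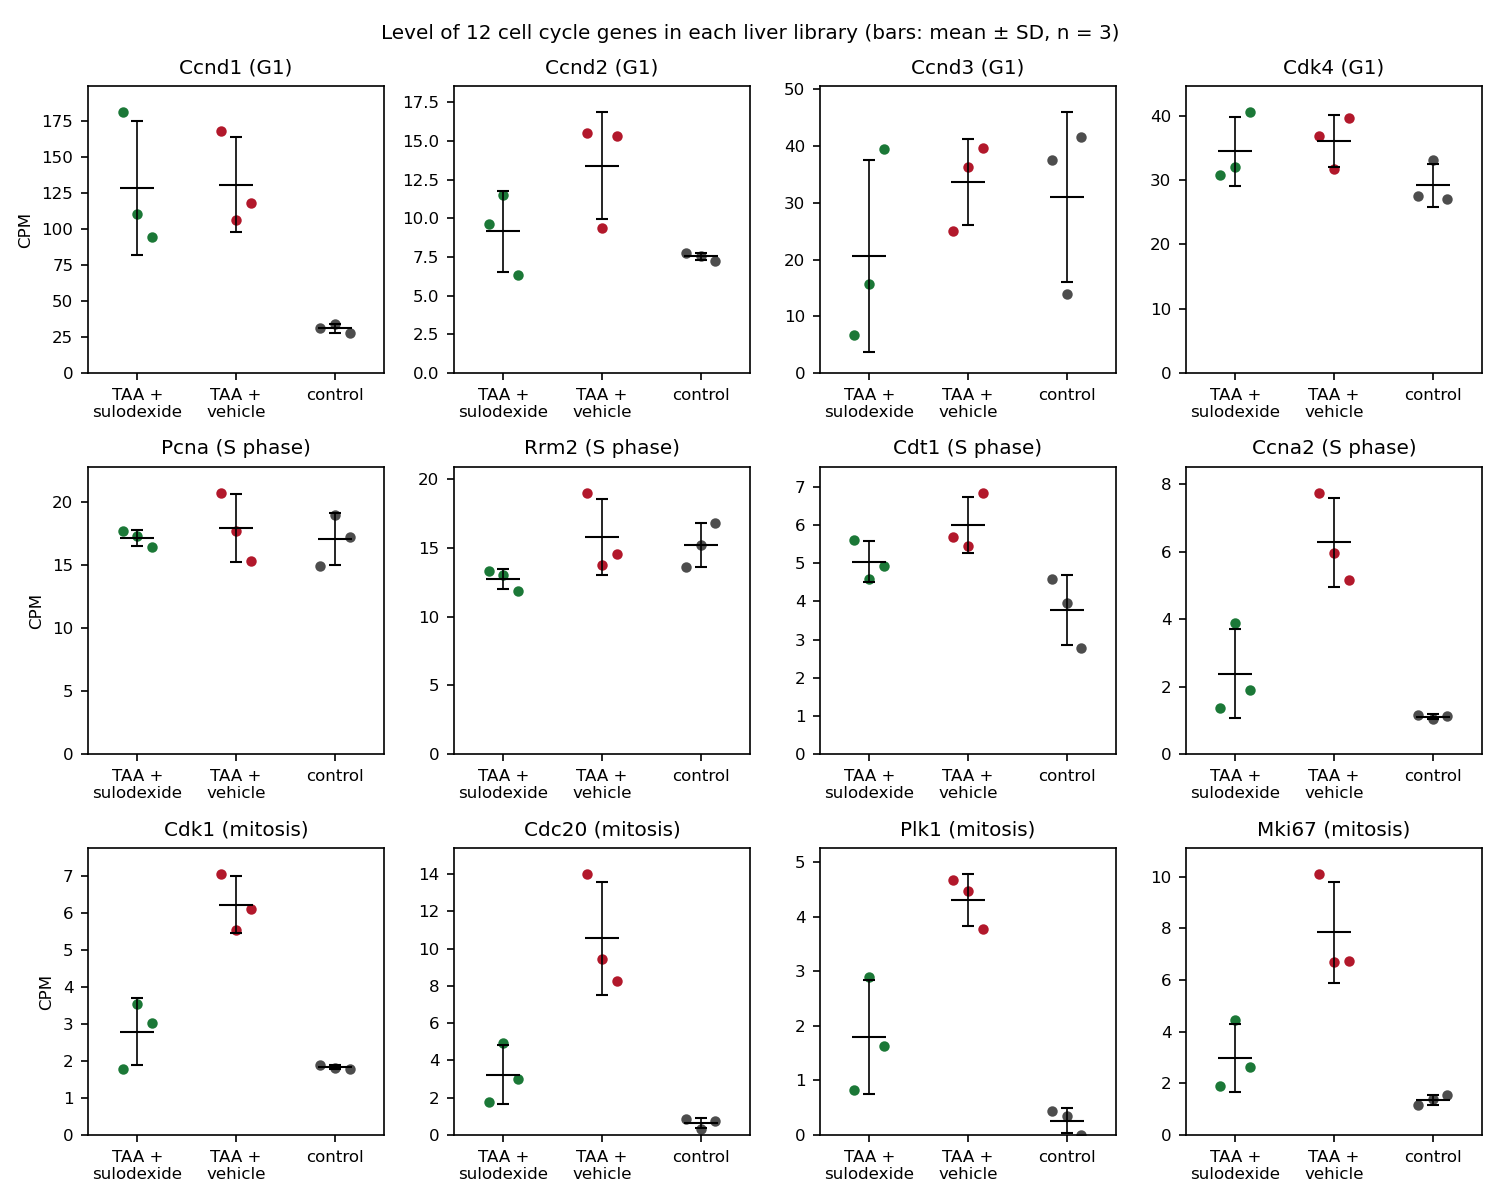
Level in CPM (vertical axis, linear from 0) of 12 genes in each library of the 3 groups, with the mean and SD of 3 libraries as bars. The Ccnd1 points of both TAA groups lie above the controls, Pcna and Rrm2 overlap between vehicle and control, and the vehicle points of Cdk1, Cdc20, Plk1 and Mki67 lie above both other groups.

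The S phase class did not move as a block. The 3 that rose in vehicle against control livers were Ccna2, Cdc6 and Cdt1, while Pcna, Rrm1, Rrm2 and Tyms did not pass the test. Ccna2 (cyclin A2, which acts from S phase into mitosis) had 1.36, 3.88 and 1.91 CPM in sulodexide livers, 7.74, 5.95 and 5.16 CPM in vehicle livers, and 1.16, 1.03 and 1.14 CPM in control livers. The 3 groups did not overlap. Ccna2 was 5.61-fold higher in vehicle than in control livers (log2 fold change 2.49 ± 0.38 SE, adjusted p = 0.000489). The licensing factor Cdt1 had 5.62, 4.58 and 4.93 CPM in sulodexide livers, 5.69, 5.46 and 6.84 CPM in vehicle livers, and 4.58, 3.96 and 2.77 CPM in control livers, and its vehicle against control log2 fold change was 0.67 ± 0.23 SE (adjusted p = 0.0344). Its partner in licensing, Cdc6, had 0.769, 1.1 and 0.592 CPM in sulodexide livers, 1.34, 0.491 and 0.986 CPM in vehicle livers, and 0.291, 0.258 and 0.489 CPM in control livers (vehicle against control, log2 fold change 1.43 ± 0.53 SE, adjusted p = 0.0482). The Cdt1 call was lost without vehicle library 1 or 3 or control library 2 or 3, and the Cdc6 call without any 1 library other than vehicle library 2.

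The genes that serve DNA synthesis overlapped between vehicle and control livers, except Rrm1. Pcna, the sliding clamp of DNA polymerases, had 17.7, 17.3 and 16.4 CPM in sulodexide livers, 20.7, 17.7 and 15.3 CPM in vehicle livers, and 14.9, 19 and 17.2 CPM in control livers. Its vehicle against control log2 fold change was 0.07 ± 0.15 SE, with a 95% interval of -0.25 to 0.4. Rrm2, the small subunit of ribonucleotide reductase, had 13.3, 13 and 11.9 CPM in sulodexide livers, 19, 13.8 and 14.6 CPM in vehicle livers, and 13.6, 15.2 and 16.8 CPM in control livers. Its vehicle against control log2 fold change was 0.06 ± 0.16 SE, with a 95% interval of -0.29 to 0.4, while vehicle library 1 was the highest of all 9. Rrm1, the large subunit, averaged 15.6 ± 1.04 CPM in vehicle livers and 12.8 ± 1.32 CPM in control livers (SD, n = 3 each), without overlap, and its log2 fold change of 0.29 missed the threshold (adjusted p = 0.107 by edgeR). Tyms, which makes thymidylate, had a log2 fold change of 0.09 (adjusted p = 0.78). Scaling by total counts, which put the median of all genes at 0.41, gave log2 fold changes of 0.48 for Pcna, 0.69 for Rrm1 and 0.46 for Rrm2, and all 3 then passed the test, as did Cdk4 and Cdk6 with 0.7 and 0.51.

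Nearly every tested mitotic gene rose in vehicle against control livers. All 26, tested or not, had a higher mean in vehicle than in control livers. In all 26, and so in all 24 tested, every vehicle library lay above every control library. Of all tested genes, 29.4% were higher without overlap. The 24 include the 7 that passed the filter on low counts only with the help of the vehicle libraries, which favours such a separation. Of the 24 tested, Kif11 and Cenpe did not pass the test. Their fitted log2 fold changes were 0.98 for Kif11 (adjusted p = 0.0615), the kinesin that pushes spindle poles apart, and 1.1 for Cenpe (adjusted p = 0.129), a kinetochore kinesin. Both passed with scaling by total counts, at 1.38 and 1.49. Levels were low in absolute terms. Mean FPKM in vehicle livers, a level per length, ran from 0.0811 to 5.25 over the 26 with a median of 0.638, against 0.00748 to 0.476 in control livers with a median of 0.0789. On the same per-length scale, Ccnd1 averaged 35.3 FPKM in vehicle livers.

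Among the drivers of mitotic entry, Cdk1 had 1.78, 3.54 and 3.02 CPM in sulodexide livers, 7.04, 5.52 and 6.09 CPM in vehicle livers, and 1.89, 1.81 and 1.79 CPM in control livers. It was 3.39-fold higher in vehicle than in control livers (log2 fold change 1.76 ± 0.28 SE, adjusted p = 0.000573). Its partner Ccnb1 (cyclin B1) had 0.828, 1.04 and 1.25 CPM in sulodexide livers, 2.74, 1.96 and 1.97 CPM in vehicle livers, and 0.436, 0.344 and 0.163 CPM in control livers, a 6.87-fold difference between vehicle and control (log2 fold change 2.78 ± 0.42 SE, adjusted p = 0.000435). The 3 groups were fully separated for Ccnb1, whereas for Cdk1 sulodexide library 1 was no higher than the controls. Ccnb2 (cyclin B2) also rose, by 2.29 on the log2 scale. Foxm1, the forkhead factor that activates mitotic genes, had 1.01, 1.04 and 0.855 CPM in sulodexide livers, 1.93, 1.6 and 2.61 CPM in vehicle livers, and 0.654, 0.86 and 0.489 CPM in control livers, and was 3.05-fold higher in vehicle than in control livers (adjusted p = 0.0046).

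The mitotic kinases followed. Plk1, the Polo-like kinase, had 0.828, 2.9 and 1.64 CPM in sulodexide livers, 4.67, 4.48 and 3.77 CPM in vehicle livers, and 0.436, 0.344 and 0 CPM in control livers. No sulodexide library reached the lowest vehicle library, and each was above the highest control. Plk1 was 15.9-fold higher in vehicle than in control livers by the fit (log2 fold change 3.99 ± 0.64 SE, adjusted p = 0.000632). Aurka, which acts at spindle poles, and Aurkb, the kinase of the chromosomal passenger complex, rose by 1.48 and 1.97 on the log2 scale. Birc5 (survivin), in the same complex as Aurkb, had 1.36, 1.97 and 2.7 CPM in sulodexide livers, 4.62, 3.25 and 3.94 CPM in vehicle livers, and 1.02, 1.46 and 1.47 CPM in control livers, a 3-fold difference between vehicle and control (adjusted p = 0.00263).

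Spindle checkpoint genes and their target rose as well. Cdc20 (ENSMUSG00000006398, chr4:118432901-118437352, GRCm38), the activator of the anaphase-promoting complex that the checkpoint holds in check, had 1.78, 4.93 and 3.02 CPM in sulodexide livers, 14, 9.45 and 8.24 CPM in vehicle livers, and 0.872, 0.344 and 0.734 CPM in control livers. The 3 groups did not overlap. Cdc20 was 15.9-fold higher in vehicle than in control livers (log2 fold change 3.99 ± 0.44 SE, adjusted p = 6.83e-05). The checkpoint kinase Bub1b had 2.01, 1.97 and 1.32 CPM in sulodexide livers, 3.98, 3.19 and 3.42 CPM in vehicle livers, and 0.436, 0.258 and 0.652 CPM in control livers (vehicle against control, log2 fold change 2.95 ± 0.37 SE, adjusted p = 0.000141). Bub1, another checkpoint kinase, rose as well, and since the control libraries together held 3 counts of it, its size is given as a ratio of summed counts relative to library size, 11.8 for 49 against 3 counts (95% exact interval 3.81 to 59.1, counting error only). Mad2l1, which encodes the checkpoint protein Mad2, rose by 1.32 on the log2 scale.

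Most kinesin, midzone and microtubule genes of the 42 also rose. Kif20a (ENSMUSG00000003779), a kinesin of cytokinesis, had 2.25, 3.94 and 3.02 CPM in sulodexide livers, 8.92, 6.38 and 6.67 CPM in vehicle livers, and 0.944, 1.12 and 0.489 CPM in control livers. It was 8.55-fold higher in vehicle than in control livers (log2 fold change 3.1 ± 0.34 SE, adjusted p = 5.81e-05), and the 3 groups did not overlap. Kif23 and Prc1, of the central spindle, rose by 2.39 and 2.45 on the log2 scale. Tpx2, which activates Aurora A on the spindle, Nusap1, a microtubule binder, and Ect2, the exchange factor of cytokinesis, rose by 2.52, 3.77 and 1.68. Cenpf, a kinetochore protein, rose by 2.08, a call lost without vehicle library 1, 2 or 3, control library 1 or 3 or sulodexide library 3. Hmmr, a microtubule-associated hyaluronan receptor, also rose, with 99 counts in the vehicle libraries against 2 in the controls, a ratio relative to library size of 35.7 (95% exact interval 9.64 to 299). The untested phosphatase gene Cdc25c had 38 counts against 2, a ratio of 13.7 (95% exact interval 3.55 to 117). The untested checkpoint kinase gene Ttk had 0.118, 0.406 and 0.132 CPM in sulodexide livers, 0.698, 1.04 and 0.406 CPM in vehicle livers, and 0.218, 0 and 0.326 CPM in control livers.

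A chromosome gene and the proliferation marker followed. Top2a, the topoisomerase that untangles chromosomes, had 1.66, 5.45 and 4.21 CPM in sulodexide livers, 10.5, 6.32 and 5.22 CPM in vehicle livers, and 1.45, 0.602 and 1.47 CPM in control livers. It was 6.18-fold higher in vehicle than in control livers (adjusted p = 0.00168), and sulodexide library 2 lay inside the vehicle range. Mki67 (ENSMUSG00000031004, chr7:135689788-135716379, GRCm38), which encodes the proliferation antigen Ki-67, had 1.89, 4.46 and 2.63 CPM in sulodexide livers, 10.1, 6.69 and 6.73 CPM in vehicle livers, and 1.16, 1.38 and 1.55 CPM in control livers. The 3 groups did not overlap, and Mki67 was 5.75-fold higher in vehicle than in control livers (log2 fold change 2.52 ± 0.35 SE, adjusted p = 0.000227).

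Most promoter windows on hand for mitotic genes held a motif that was in none of those on hand for G1 and S phase genes. RefSeq promoter windows (GRCm38.p6) from 250 bases before to 50 after the start were on hand for 33 of the 42 genes and for 27025 genes in all. None was on hand for Ccna2, Ccnd1, Ccnd2, Ccne2, Cdc25c, Foxm1, Aurkb, Kif20a or Tpx2. The CHR motif, TTTGAA, is known as an element of promoters that peak in mitosis, where MuvB-containing complexes bind it, and is often accompanied by CCAAT boxes. Both strands were searched. Shares are of genes, and a gene was taken to hold a motif if any of its windows did. TTTGAA was found for 15 of 21 mitotic genes, 0 of 6 S phase genes and 0 of 6 G1 genes, beside 20.2% of all genes. With 6 genes in each of the G1 and S phase classes, its absence there says little. The mitotic windows without it were those of Birc5, Bub1, Ccnb1, Mad2l1 and Nusap1, which rose in vehicle against control, and of Cenpe, which did not pass. CCAAT was found for 18 of 21 mitotic, 3 of 6 S phase and 2 of 6 G1 genes, beside 41.1% of all genes. Both were found, whether or not in the same window, for 15 of 21 mitotic genes and for 8.97% of all genes. An E2F site was searched as TTTGGCGC, TTTCGCGC, TTTGCCGC or TTTCCCGC. It was found for Cdk1 alone among the mitotic genes, for Cdc6 and Cdt1 of S phase and for Cdk2 of G1, beside 2.6% of all genes. These are matches of letters and were not tested.

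The windows of 4 mitotic genes that rose and hold TTTGAA, and of 2 S phase genes that did not pass the test, are printed to show these letters. They run 5′ to 3′ on the gene's strand, with matches in capitals (a CCAAT box on the other strand reads ATTGG). Cdc20 is chr4:118437294-118437593 on the minus strand, Plk1 is chr7:122159185-122159484 on the plus strand, and Bub1b is chr2:118597961-118598260 on the plus strand. Cdk1 is chr10:69352863-69353162 on the minus strand, Pcna is chr2:132253131-132253430 on the minus strand, and Rrm2 is chr12:24708004-24708303 on the plus strand.
Cdc20: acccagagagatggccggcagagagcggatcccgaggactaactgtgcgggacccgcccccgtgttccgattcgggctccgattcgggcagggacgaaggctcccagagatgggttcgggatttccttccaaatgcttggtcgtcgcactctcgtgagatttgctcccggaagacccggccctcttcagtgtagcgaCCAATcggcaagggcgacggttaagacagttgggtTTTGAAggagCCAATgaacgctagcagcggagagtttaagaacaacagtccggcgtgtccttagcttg
Plk1: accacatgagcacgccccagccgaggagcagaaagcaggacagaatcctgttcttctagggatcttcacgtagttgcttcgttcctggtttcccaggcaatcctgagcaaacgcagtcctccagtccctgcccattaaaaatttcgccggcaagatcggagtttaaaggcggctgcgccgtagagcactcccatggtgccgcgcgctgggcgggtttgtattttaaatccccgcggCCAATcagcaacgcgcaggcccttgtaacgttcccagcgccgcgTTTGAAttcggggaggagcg
Bub1b: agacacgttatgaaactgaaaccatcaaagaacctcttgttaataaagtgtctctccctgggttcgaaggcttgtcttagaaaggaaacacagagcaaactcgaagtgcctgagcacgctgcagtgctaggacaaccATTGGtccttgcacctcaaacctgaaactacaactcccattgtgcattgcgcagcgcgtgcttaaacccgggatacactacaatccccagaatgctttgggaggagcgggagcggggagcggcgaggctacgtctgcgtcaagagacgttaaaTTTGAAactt
Cdk1: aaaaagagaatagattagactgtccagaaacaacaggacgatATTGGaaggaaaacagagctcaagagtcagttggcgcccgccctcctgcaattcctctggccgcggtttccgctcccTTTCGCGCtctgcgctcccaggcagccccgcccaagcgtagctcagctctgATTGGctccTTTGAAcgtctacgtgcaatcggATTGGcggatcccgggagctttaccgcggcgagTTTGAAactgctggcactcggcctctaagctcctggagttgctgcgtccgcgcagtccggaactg
Pcna: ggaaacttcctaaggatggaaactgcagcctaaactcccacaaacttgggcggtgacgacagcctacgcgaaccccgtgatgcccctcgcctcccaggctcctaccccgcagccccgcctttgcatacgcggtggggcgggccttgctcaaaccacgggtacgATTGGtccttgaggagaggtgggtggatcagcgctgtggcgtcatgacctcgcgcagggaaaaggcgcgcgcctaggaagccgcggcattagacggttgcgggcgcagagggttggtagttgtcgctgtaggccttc
Rrm2: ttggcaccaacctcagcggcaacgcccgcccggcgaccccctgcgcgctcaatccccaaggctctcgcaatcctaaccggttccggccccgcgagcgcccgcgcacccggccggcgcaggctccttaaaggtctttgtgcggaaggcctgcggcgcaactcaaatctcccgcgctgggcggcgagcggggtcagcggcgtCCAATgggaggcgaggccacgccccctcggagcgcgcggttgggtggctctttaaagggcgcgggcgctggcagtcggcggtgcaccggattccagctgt
Cdc20, Plk1 and Bub1b hold TTTGAA at positions 233, 281 and 291 of the 300 bases. Cdk1 holds it at 180 and 236 beside the E2F site at 120, and Pcna and Rrm2 hold a CCAAT box with no TTTGAA.

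In the comparison of sulodexide with vehicle, both under TAA, 0 of the 40 tested genes rose and 5 fell by edgeR, where 1.39% of all tested genes rose and 3.41% fell. Those that fell were the mitotic genes Cdk1, Cdc20, Kif20a and Mki67 and the S phase gene Ccna2. The median log2 fold change was -1.17 for mitotic, -0.2 for S phase and -0.03 for G1 genes, beside 0.02 for all tested genes. All 26 mitotic genes had a lower mean in sulodexide than in vehicle livers. In 21 of them, and in 19 of the 24 tested, every sulodexide library lay below every vehicle library. Of all tested genes, 13.1% were lower without overlap. Of the 24 tested, 20 had an unadjusted p below 0.05 by edgeR, all of them lower. The 24 include the 7 that passed the filter on low counts only with the help of the vehicle libraries. No gene of the 42 was higher at an unadjusted p below 0.05 by edgeR or by DESeq2, and DESeq2 called 6 lower, Tpx2 among them.

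The largest fall among the 5 was in Cdc20, whose levels are given above, to 0.307 of the vehicle level (log2 fold change -1.7 ± 0.36 SE, adjusted p = 0.0247). Ccna2 fell by 1.39 on the log2 scale (SE 0.35, adjusted p = 0.0457) and Mki67 by 1.38 (SE 0.31, adjusted p = 0.0305). Kif20a fell by 1.25 (SE 0.29, adjusted p = 0.0336) and Cdk1 by 1.16 (SE 0.26, adjusted p = 0.0317). All 3 sulodexide libraries were below all 3 vehicle libraries for each of the 5.

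Genes of like function with like fitted differences missed the threshold. Plk1 had a log2 fold change of -1.26 ± 0.49 SE (adjusted p = 0.175 by edgeR), Ccnb1 of -1.1 ± 0.35 SE (adjusted p = 0.105) and Tpx2 of -1.46 ± 0.44 SE (adjusted p = 0.0861). Birc5 had -0.97 ± 0.3 SE (adjusted p = 0.0997), Foxm1 -1.07 ± 0.34 SE (adjusted p = 0.101), Bub1b -0.99 ± 0.31 SE (adjusted p = 0.0984) and Top2a -0.96 ± 0.43 SE (adjusted p = 0.234). The smallest difference of the 24 was that of Mad2l1, -0.46, with a 95% interval of -1.16 to 0.24. Among the S phase genes Pcna had a log2 fold change of -0.06 (95% interval -0.38 to 0.26) and Rrm2 of -0.31 (95% interval -0.65 to 0.03), and the sulodexide values of Rrm2 were all below the vehicle values.

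The 5 calls depended on single libraries. None of the 40 genes passed the test without vehicle library 1, without vehicle library 3, without sulodexide library 1 or without sulodexide library 3, and 2 passed without control library 1 or without control library 2, which enter through the shared estimate of spread. The fitted log2 fold change of Cdc20 stayed between -2.14 and -1.4 over these omissions, and that of Mki67 between -1.79 and -1.14.

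**Figure D2:**
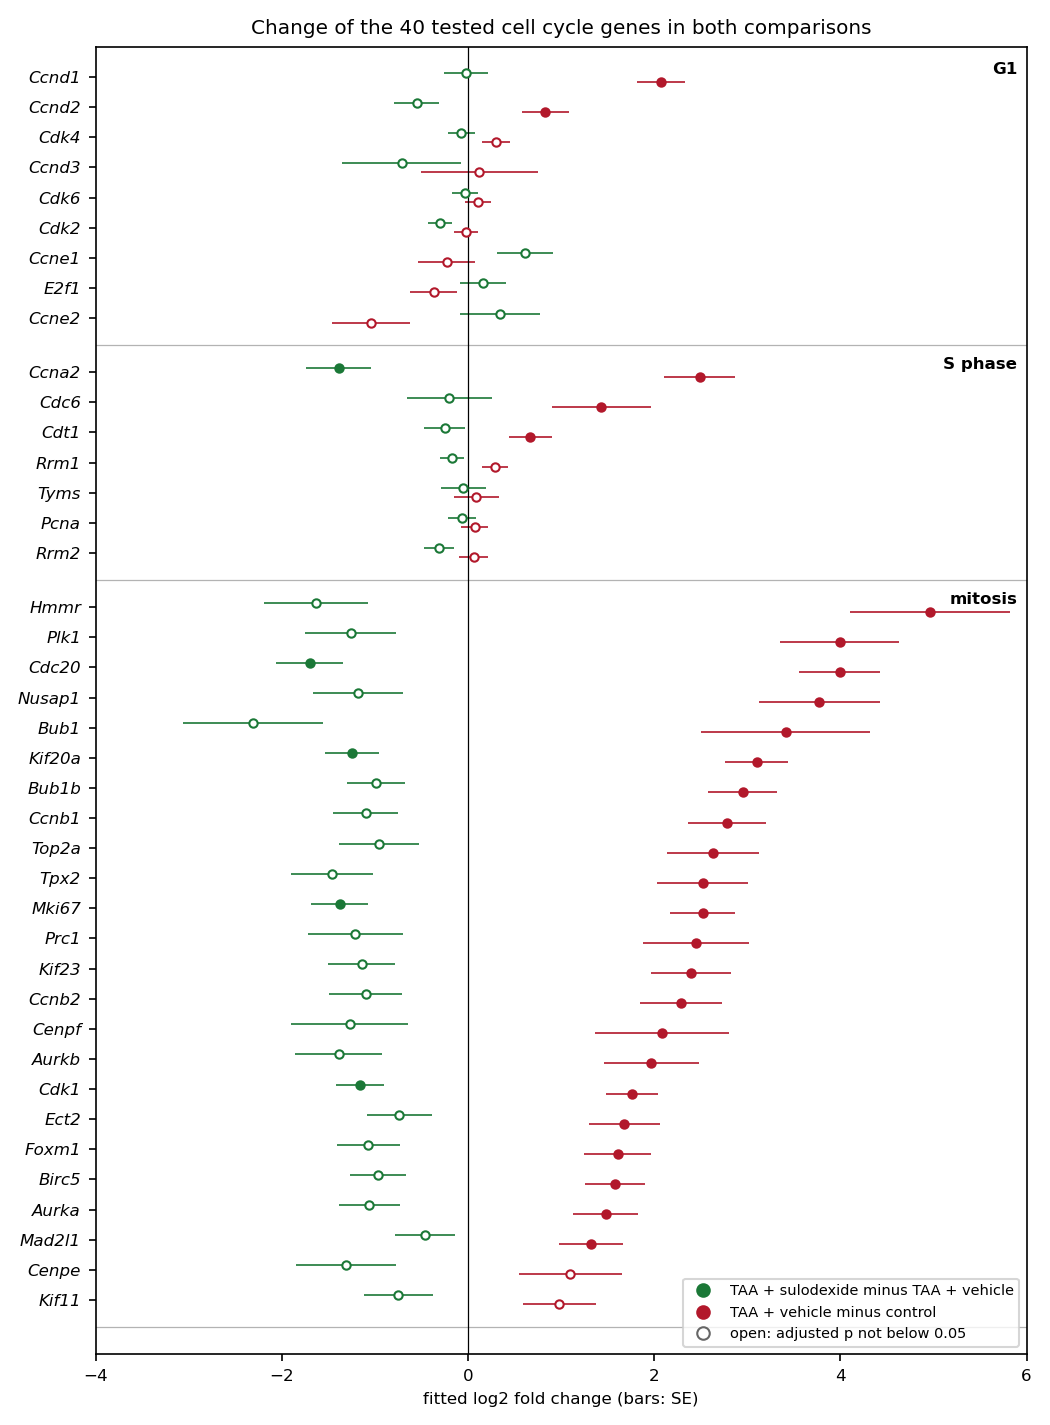
Fitted log2 fold change with its SE (horizontal axis) of the 40 tested genes by class, for sulodexide against vehicle and for vehicle against control, filled where the adjusted p was below 0.05. The mitotic genes lie left of 0 in the first comparison, from -2.31 to -0.46, and right of 0 in the second, from 0.98 to 4.96. Both comparisons use the vehicle libraries, and the points of Hmmr and Bub1 against control rest on 2 and 3 control counts.

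Against control, sulodexide livers had higher levels for part of the mitotic genes. In 12 of 26, all 12 among the 24 tested, no library overlapped, where 21.4% of all tested genes were higher without overlap. Of the 40 tested, 10 rose and 0 fell by edgeR, where 11.2% of all tested genes rose and 11.4% fell. At an unadjusted p below 0.05 by edgeR 16 were higher and 1, Cdk2, was lower. DESeq2 called 10 higher and 0 lower of 42. The median log2 fold change was 1.12 for mitotic, 0.12 for S phase and 0.08 for G1 genes, beside 0.02 for all tested genes. Those that rose by edgeR were Ccnd1 and the mitotic genes Ccnb1, Plk1, Bub1b, Cdc20, Kif20a, Nusap1, Hmmr, Top2a and Mki67. Bub1b and Kif20a had the smallest p-values of the mitotic class (log2 fold changes 1.96 ± 0.38 SE and 1.84 ± 0.35 SE, adjusted p = 0.00484 and 0.0038). Cdc20 was 4.88-fold higher (log2 fold change 2.29 ± 0.46 SE, adjusted p = 0.00551). Hmmr had 30 against 2 counts, a ratio relative to library size of 11.4 (95% exact interval 2.9 to 98.8).

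None of the 7 S phase genes passed in the comparison of sulodexide with control, and 2 of them had an unadjusted p below 0.05 by edgeR, Ccna2 (log2 fold change 1.1, adjusted p = 0.0691) and Cdc6 (log2 fold change 1.24, adjusted p = 0.123). DESeq2 and voom of limma called 0 of the 7 as well, while Ccna2 passed with scaling by total counts and without sulodexide library 1, and Cdt1 with limma on FPKM. Cdk1 was 1.51-fold higher in sulodexide than in control livers by the fit and did not pass (log2 fold change 0.6, adjusted p = 0.154). The calls of Ccnb1, Nusap1, Hmmr, Top2a and Mki67 were lost without control library 2 and without control library 3, when 5 genes passed. Without sulodexide library 2, the count was 6. Sulodexide means lay between those of the other groups for 25 of 26 mitotic genes, 6 of 7 S phase genes and 6 of 9 G1 genes, and the mitotic exception was Cenpe. The share over all tested genes was not counted, and a mean can lie between with little difference. Pcna averaged 17.1 CPM in sulodexide, 17.9 CPM in vehicle and 17 CPM in control livers. Ccnd1 averaged 129 CPM in sulodexide and 131 CPM in vehicle livers. The S phase and G1 counts therefore do not show a partial return to control levels.

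The summed levels gave the same classes at a glance. Over the 26 mitotic genes, the sum was 33.7, 61.7 and 42.5 CPM in sulodexide livers, 124, 94.1 and 85.2 CPM in vehicle livers, and 22.8, 21.1 and 19.2 CPM in control livers. The groups did not overlap. The 7 S phase genes summed to 58.4 ± 1.85 CPM in sulodexide livers, 69.2 ± 6.81 CPM in vehicle livers and 56.5 ± 5.25 CPM in control livers (SD, n = 3 each). The 9 G1 genes summed to 241 ± 32.6 CPM in sulodexide livers, 263 ± 33.2 CPM in vehicle livers and 149 ± 8.81 CPM in control livers, and without Ccnd1 to 113 ± 17.1 CPM in sulodexide livers, 133 ± 11 CPM in vehicle livers and 118 ± 11.7 CPM in control livers. Sums weight the genes with the most counts.

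Libraries within a group differed for many mitotic genes at once. Vehicle library 1 was the highest of its group for 21 of 26 mitotic genes. Sulodexide library 2 was the highest of its group for 19 and sulodexide library 1 the lowest for 18. Control libraries 1, 2 and 3 were the highest of their group for 10, 8 and 8 genes and the lowest for 5, 8 and 13. How often each library was the highest or lowest over all tested genes was not counted, so this order may not be particular to mitotic genes.

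Many markers of immune and some other liver cells rose in vehicle against control livers. Few of the immune markers were called in sulodexide against vehicle livers. The counts of markers here and in the next paragraph stand beside 23.1% higher and 20.4% lower of all tested genes in vehicle against control. For sulodexide against vehicle those shares were 1.39% and 3.41%. The 12 macrophage markers summed to 255, 565 and 390 CPM in sulodexide livers, 630, 283 and 345 CPM in vehicle livers, and 195, 179 and 172 CPM in control livers, and 9 of 12 rose in vehicle against control while 1 fell in sulodexide against vehicle. Vehicle library 1 and sulodexide library 2 were the highest of their groups here too. The same held for the T and NK cell, B and plasma cell, neutrophil and endothelial sums below. It did not hold for the cholangiocyte, stellate cell and myofibroblast, hepatocyte and red cell sums. The 10 T and NK cell markers summed to 13.3 to 20.9 CPM in sulodexide, 12.3 to 44.7 CPM in vehicle and 7.34 to 10.1 CPM in control livers, with 7 of 10 higher in vehicle against control and 0 called in sulodexide against vehicle. The 8 B and plasma cell markers summed to 38.4 to 97.2 CPM in sulodexide, 70.8 to 204 CPM in vehicle and 6.61 to 13.1 CPM in control livers. Of the 7 tested, 4 rose in vehicle against control and 0 were called in sulodexide against vehicle. The 9 neutrophil markers summed to 7.1 to 16.2 CPM in sulodexide, 10.7 to 54.6 CPM in vehicle and 2.25 to 3.27 CPM in control livers. All 5 tested rose in vehicle against control, and 0 were called in sulodexide against vehicle.

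The 10 cholangiocyte markers summed to 145, 68.5 and 97.6 CPM in sulodexide livers, 607, 264 and 568 CPM in vehicle livers, and 70, 46 and 75.9 CPM in control livers. All 10 rose in vehicle against control, and 8 fell in sulodexide against vehicle. The 12 stellate cell and myofibroblast markers summed to 359 to 383 CPM in sulodexide, 565 to 876 CPM in vehicle and 224 to 261 CPM in control livers, with 10 higher in vehicle against control and 5 lower in sulodexide against vehicle. Of 12 hepatocyte markers, 1 rose and 8 fell in vehicle against control, and 1 rose in sulodexide against vehicle. The 12 summed to 97200 to 121000 CPM in sulodexide, 89800 to 109000 CPM in vehicle and 111000 to 139000 CPM in control livers. The 10 endothelial markers summed to 309 to 391 CPM in sulodexide, 284 to 354 CPM in vehicle and 300 to 353 CPM in control livers, and the 8 red cell markers to 138 to 193 CPM in sulodexide, 131 to 173 CPM in vehicle and 206 to 286 CPM in control livers. No marker was at 0 in every library, and the part of any of these cell types in the levels of the mitotic genes was not tested.

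**Figure D3:**
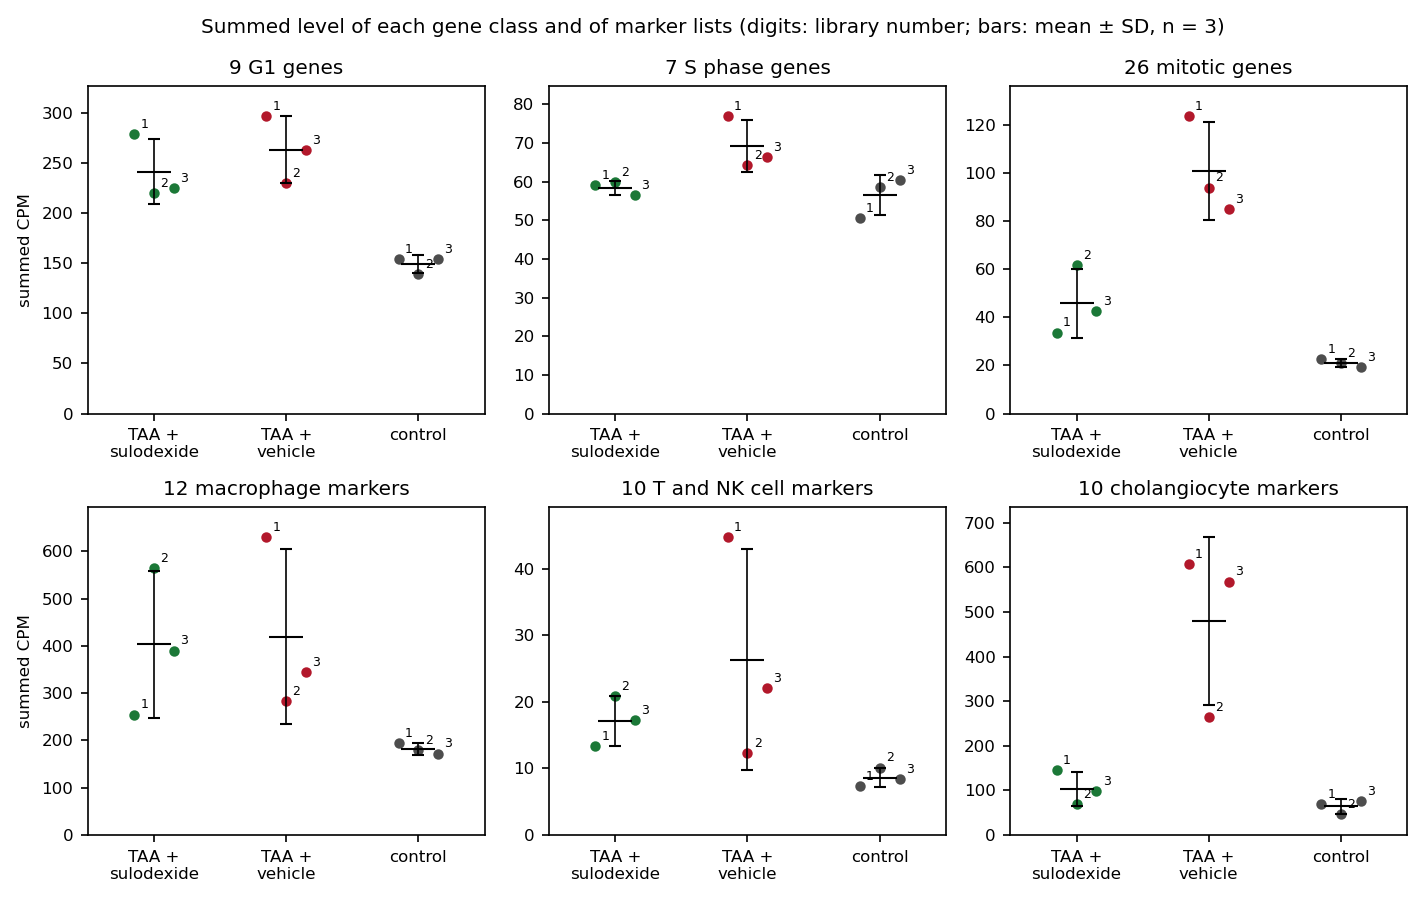
Summed CPM (vertical axes, linear from 0) of the G1, S phase and mitotic genes and of 3 lists of cell type markers in each library, numbered 1 to 3 within its group, with mean and SD. The mitotic sums separate the 3 groups, vehicle library 1 is highest for the mitotic, macrophage and T and NK cell sums, and the cholangiocyte sums of all vehicle libraries lie above the rest.

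Other cell cycle genes were followed in 3 lists that hold none of the 42. The lists of G1 and the restriction point, replication, and mitosis and cytokinesis held 30, 44 and 70 genes. Of these 28, 42 and 56 were tested. How many of them passed the filter on low counts only with the help of the vehicle libraries was not counted. Genes that pass only so tend to be higher in vehicle livers than in the other groups. In vehicle against control livers, 6 rose and 5 fell of 28 tested genes of G1 and the restriction point, 14 rose and 6 fell of 42 replication genes, and 40 rose and 1 fell of 56 genes of mitosis and cytokinesis, where 23.1% of all tested genes rose and 20.4% fell. The shares of the G1 list were near those of all genes. The median log2 fold changes were -0.18, 0.3 and 1.8 in that order of lists. In sulodexide against vehicle livers the counts were 1 higher and 0 lower, 1 higher and 2 lower, and 0 higher and 5 lower, beside 1.39% higher and 3.41% lower of all genes. In sulodexide against control livers they were 3 higher and 2 lower, 6 higher and 4 lower, and 16 higher and 2 lower, beside 11.2% higher and 11.4% lower of all genes. The count of 7 over the lists that fell in sulodexide against vehicle became 0 without vehicle library 1 or 3, 1 without sulodexide library 1 or 2, 2 without sulodexide library 3, 3 without control library 1 and 4 without control library 2. The count of 25 that rose in sulodexide against control became 15 without control library 2 or 3 and 16 without control library 1 or sulodexide library 2.

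Cdk inhibitor genes and a retinoblastoma relative were among the genes with the smallest p in the G1 and restriction point list. Of the genes named below, Rbl2, Lig1, Gins2, Tk1 and Pkmyt1 overlap another gene with more than 10% of their own counts, so their counts are uncertain as above. Cdkn1a, which encodes the Cdk inhibitor p21, had 308, 230 and 214 CPM in sulodexide livers, 235, 274 and 261 CPM in vehicle livers, and 7.85, 2.32 and 3.67 CPM in control livers. It was 54.8-fold higher in vehicle than in control livers (log2 fold change 5.78 ± 0.38 SE, adjusted p = 6.59e-06), and its difference between sulodexide and vehicle was -0.03 on the log2 scale (95% interval -0.7 to 0.63). The Cdk4 and Cdk6 inhibitor gene Cdkn2c rose by 1.61 in vehicle against control and did not pass in sulodexide against vehicle (log2 fold change -0.64, adjusted p = 0.0604). Rbl2, a retinoblastoma relative that holds mitotic promoters silent in resting cells, had 31.5, 32.3 and 32.7 CPM in sulodexide livers, 25.1, 23.9 and 22.5 CPM in vehicle livers, and 50.3, 49.2 and 44 CPM in control livers. It fell by 1 on the log2 scale in vehicle against control (SE 0.11, adjusted p = 6.06e-05), and it rose by 0.43 in sulodexide against vehicle (SE 0.11, adjusted p = 0.0491). That rise was lost whenever any 1 library was left out. Tfdp2, a partner of E2F factors, fell by 0.89 in vehicle against control.

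Genes of the replication list were called in both directions. In vehicle against control 14 rose and 6 fell of 42, beside 23.1% and 20.4% of all tested genes. In sulodexide against vehicle 1 rose and 2 fell, near the shares of all tested genes at 1.39% and 3.41%. Mcm10, a replication initiation factor, had 51.2, 78.6 and 47.3 CPM in sulodexide livers, 8.97, 17.6 and 12.8 CPM in vehicle livers, and 163, 147 and 187 CPM in control livers, an order opposite to that of the mitotic genes. It fell by 3.66 on the log2 scale in vehicle against control (SE 0.27, adjusted p = 8.74e-06) and rose by 2.17 in sulodexide against vehicle (SE 0.26, adjusted p = 0.00533). Tk1, an enzyme of thymidylate supply, fell by 1.91 on the log2 scale in vehicle against control. Lig1, the ligase of lagging-strand synthesis, rose by 2.05. Mcm6, a subunit of the replicative helicase, had 6.15, 7.31 and 7.5 CPM in sulodexide livers, 16.7, 10.8 and 14.6 CPM in vehicle livers, and 4.58, 4.9 and 5.14 CPM in control livers, and it fell by 1.01 in sulodexide against vehicle (SE 0.19, adjusted p = 0.0159). Gins2, of the same helicase complex, fell by 1.32 (adjusted p = 0.0446).

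Not every mitotic gene of the list was highest in vehicle livers. Gtse1, a microtubule-binding protein of G2 and S phase, had 15.6, 16.2 and 14.5 CPM in sulodexide livers, 12.1, 13.9 and 10.7 CPM in vehicle livers, and 1.02, 1.46 and 0.897 CPM in control livers. It rose by 3.44 on the log2 scale in vehicle against control, by 3.78 in sulodexide against control, and its difference between sulodexide and vehicle was 0.33 (adjusted p = 0.296). The kinesin gene Kifc1 and the spindle protein gene Ckap2 likewise rose against control in both TAA groups, by 4.7 and 3.41 in sulodexide and by 4.58 and 3.56 in vehicle livers, and did not pass in sulodexide against vehicle (log2 fold changes 0.12 and -0.15). The 5 genes of the list that fell in sulodexide against vehicle were Racgap1, of the central spindle (-1.54, adjusted p = 0.0259), the Cdk1-inhibiting kinase gene Pkmyt1 (-1.45, adjusted p = 0.0204), the mitotic kinase gene Pbk (-1.88, adjusted p = 0.0389), Cdca3 (-1.01, adjusted p = 0.0474), and the ubiquitin-conjugating enzyme gene Ube2c (-1.44, adjusted p = 0.0485). The kinetochore gene Spc24 was the 1 that fell in vehicle against control, by 0.79.

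**Figure D4:**
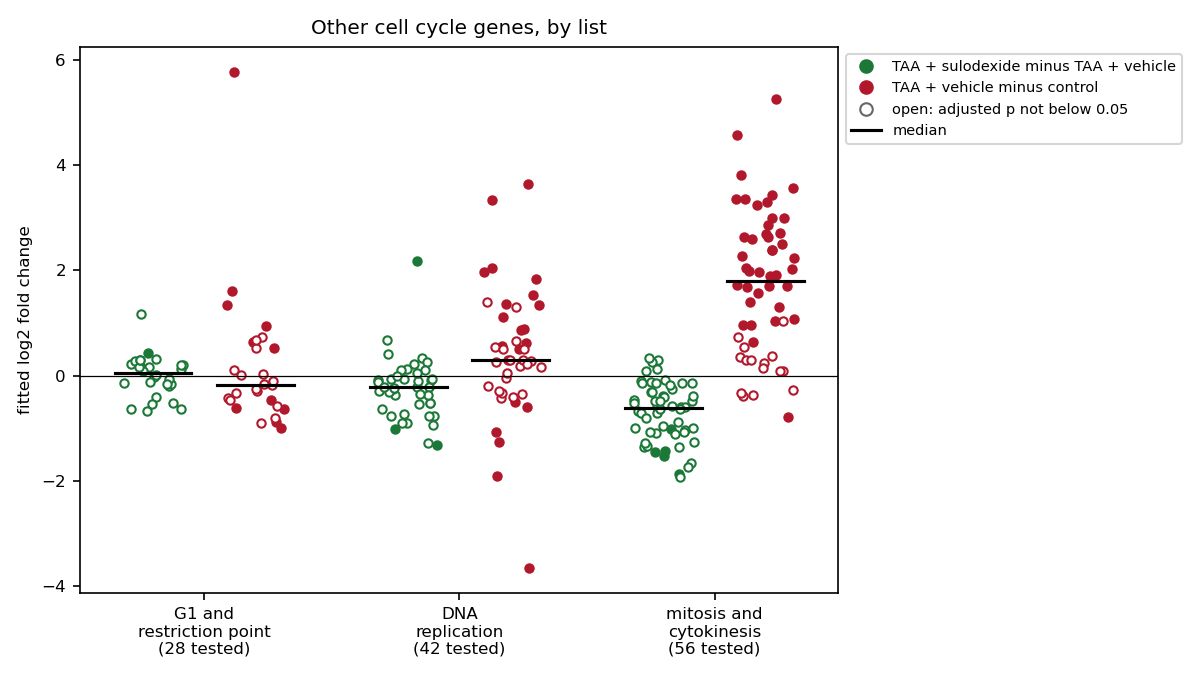
Fitted log2 fold change (vertical axis) of the tested genes of 3 lists of other cell cycle genes, for sulodexide against vehicle and vehicle against control, filled where the adjusted p was below 0.05, with the median as a line. The medians of the mitosis and cytokinesis list are -0.62 and 1.8, those of the replication list -0.22 and 0.3, and those of the G1 list 0.05 and -0.18. Both comparisons use the vehicle libraries, and Pbk rests on 2 control counts.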

How the data were processed

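Total RNA of mouse livers was sequenced as mRNA libraries, per the labels' protocols. The whole-number counts per gene and the FPKM values are those the authors deposited. The submitters' processing notes name HISAT2 2.0.4, StringTie 1.3.0, mm10 and GRCm38.p4, without roles. Which program made the counts, and whether it used strand, is not given in the sources used here. All 42 genes, the lists and the cell type markers were chosen with earlier results of these data known.

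Counts of all 9 libraries were fitted in edgeR 4.0.16 (R 4.3.3) with TMM scaling (factors 0.821 to 1.18), filterByExpr (minimum count 10), a mean per group and no replicate block. The robust quasi-likelihood test was applied to 13701 genes with Benjamini-Hochberg adjustment and a threshold of 0.05. The common dispersion was 0.0409, with 6 residual degrees of freedom. On simulated counts with 200 changed genes, 40% of 2-fold and 88% of 4-fold changes were recovered for vehicle against control, and 56% and 84% for sulodexide against vehicle, with 4.92% and 8.96% of the calls false. The changed genes were drawn at random from the tested genes, at their mean level over all groups. These shares therefore need not hold for the mitotic genes, whose control counts were low, nor where many more genes change. No pair of libraries of a group was alike within sampling noise (lowest chi-square per degree of freedom 18.49). Alternatives used limma 3.58.1 and DESeq2 1.42.0. Intervals on ratios of counts are exact at 95% and cover counting error only.

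All 42 genes are named, those of main interest with every library. Of each list of other cell cycle genes, up to 4 with the smallest p per comparison are named, and Ube2c was added after its values were seen. 1 gene that this rule names is not reported here.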

Additional observations from a re-analysis of the deposited data

How the results depend on the processing

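In vehicle against control livers, 23 of the 27 genes that rose passed under every alternative that tested them, all but Ccnd2, Cdc6, Cdt1 and Cenpf. In sulodexide against control livers 5 of 10 did, and in sulodexide against vehicle livers 0 of 5.

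Scaling by total counts put the median of all genes at 0.41 for vehicle against control, -0.12 for sulodexide against vehicle and 0.27 for sulodexide against control. Relative to it, the mitotic median was 2.42, -1.19 and 1.09. With this scaling, 5752 of all genes were higher and 1158 lower in vehicle against control (3162 and 2792 with TMM), 91 were higher in sulodexide against vehicle (191), and 3311 were higher and 759 lower in sulodexide against control (1538 and 1564). The 42 genes then had 17 higher in sulodexide against control, and the other cell cycle genes 4 lower in vehicle against control, 39 higher and 4 lower in sulodexide against control and 1 higher in sulodexide against vehicle. Log2 fold changes that changed sign were 0.16 for Ccne1, 0.38 for Cdk2 and 0.02 for E2f1 in vehicle against control, and 0.04 for E2f1, 0.01 for Rrm2 and 0.03 for Cenpe in sulodexide against control.

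With limma on log2(FPKM + 0.1), the counts were 5747 higher and 1161 lower of all genes in vehicle against control, 93 and 714 in sulodexide against vehicle, and 3201 and 768 in sulodexide against control. Of the 42 genes 12 were lower in sulodexide against vehicle, and of other cell cycle genes 5 were lower in vehicle against control, 1 higher and 14 lower in sulodexide against vehicle and 4 lower in sulodexide against control. Ccne1, Cdk2 and E2f1 had 0.15, 0.37 and 0.03 in vehicle against control, and E2f1 and Rrm2 0.04 and 0.0 in sulodexide against control. DESeq2 gave 366 higher and 726 lower of all genes and 11 lower of other cell cycle genes in sulodexide against vehicle. Fitting the compared groups alone gave 85 higher and 302 lower of all genes, 2 of the 42 lower and 1 other cell cycle gene higher. Voom gave 1 gene lower in vehicle against control, Ccne2. With size factors of DESeq2, no filter on low counts or at least 1 CPM in 3 libraries, 1 other cell cycle gene was higher in sulodexide against vehicle (2 in the fit reported).

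The replicate numbers did not pair the libraries: same-numbered libraries of different groups had correlations of -0.07 to 0.142, 2 of 9 over 0.1, and 0 libraries correlated best with their own number. With the number as a replicate block, 3 of the 42 genes were lower in sulodexide against vehicle, and of other cell cycle genes 1 was higher and 4 lower.

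With 1 library left out, the 42 genes had 0 to 1 lower in vehicle against control, 0 to 4 lower in sulodexide against vehicle and 5 to 12 higher in sulodexide against control. In sulodexide against vehicle, 44 to 189 of all genes were higher and 95 to 670 lower, and of other cell cycle genes 1 was higher and 0 to 7 were lower. In sulodexide against control 928 to 1623 of all genes and 15 to 24 other cell cycle genes were higher. Uncalled genes that crossed 0 ranged in vehicle against control over -0.05 to 0.17 (Pcna), -0.1 to 0.14 (Rrm2), -0.14 to 0.26 (Tyms), -0.25 to 0.36 (Ccnd3) and -0.07 to 0.03 (Cdk2). In sulodexide against vehicle they ranged over -0.35 to 0.2 (Ccnd1), -0.15 to 0.06 (Cdk6), -0.49 to 0.15 (Cdc6), -0.16 to 0.06 (Pcna), -0.19 to 0.01 (Cdk4), -0.21 to 0.09 (Tyms) and -0.02 to 0.34 (E2f1). In sulodexide against control they ranged over -0.1 to 0.08 (Pcna), -0.19 to 0.21 (Tyms), -1.05 to 0.09 (Cenpe), -0.09 to 0.45 (Kif11) and -0.05 to 0.15 (Cdk6). The cause of these changes was not tested. Depth limits the mitotic genes of the control livers, 7 of which were tested only through the vehicle libraries.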
